A study of Mus musculus with 11 samples.

Results

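Gained H3K4me1 domains without MyoD or MyoG are stretches of chromatin that were listed as marked in C2C12 myotubes but not in C2C12 myoblasts, and on which neither muscle factor had a listed peak. Members were chosen by the deposited lists alone: a myotube domain was taken where it shared not even 1 base with a myoblast H3K4me1 domain, with a MyoD peak of myotubes or myoblasts, or with a MyoG peak of myotubes. The rule took 14484 of the 70587 myotube domains, or 20.5% (95% interval 20.2 to 20.8%). They cover 29.6 Mb, which is 12.6% of all bases in myotube domains, and hold 9.60% of the ChIP reads counted in them. All gained domains together, with or without a factor peak, number 22400, or 31.7% of the list, and this share is fixed by the rule.

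C2C12 is a mouse myoblast line, labelled with the strain C3H. Chromatin immunoprecipitation with sequencing (ChIP-seq) was done on myotubes after 48 h in medium with 2% horse serum and insulin-transferrin-selenium, and on proliferating myoblasts in 10% fetal bovine serum. Antibodies were ab8895 for H3K4me1, C-20 for MyoD and M-225 for MyoG. PolyA RNA-seq comes from the same line at 4 h of differentiation, from cells with RNAi against DRR RNA (DRRi), the RNA made at a distal regulatory enhancer of Myod1, with RNAi against GFP (GFPi), with DRR RNA overexpressed from a vector (pHAN_DRR1.2) and with the GFP version of that vector (pHAN_GFP). Each group holds 1 library, so no difference has a replicate check and no test was made. All 8 muscle markers, Acta1, Cdh15, Chrna1, Des, Myf5, Myod1, Myog and Tmem8c, were measured in the 4 RNA libraries, at 1.91 to 577 FPKM. The 3 endothelial markers stayed at or below 0.0817 FPKM and the 3 neural ones at or below 0.0567 FPKM, while the adipocyte regulator Pparg reached 10.3 FPKM with Adipoq, Fabp4 and Plin1 under 1 FPKM. Of 4 fibroblast markers Pdgfra reached 1.65 FPKM and Thy1, Tcf21 and Dpt stayed under 1 FPKM, and of the blood markers Cd68 was at 1.58 to 2.52 FPKM and Ptprc at or below 0.0164 FPKM.

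H3K4me1 is a methylation of histone H3 that marks enhancers, active or poised, and the flanks of promoters. MyoD and MyoG are basic helix-loop-helix factors that bind E-boxes, short sites of the form CANNTG, and switch on muscle genes. MyoD acts in myoblasts and myotubes, and MyoG appears with differentiation. Many other factors, among them the MEF2, AP-1, RUNX and TEAD families, also act at muscle enhancers.

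The letters of the domains themselves are not printed here, because no genome of their build (mm9) was used. RefSeq promoters (GRCm38.p6) were joined by gene name, from 250 bases before to 50 bases after the start, for genes with 1 RefSeq promoter and a listed locus within 200 bases of the RefSeq gene length. Of 7529 such genes, 97 had a start window that touched a gained domain without a factor and 80 one that touched a gained domain with a MyoD or MyoG peak, by the mm9 locus and the RefSeq strand. The first set includes Chrne, the epsilon subunit of the adult muscle acetylcholine receptor, Ryr1, the calcium release channel of the sarcoplasmic reticulum, and Ldhb, the heart-type lactate dehydrogenase subunit. The second includes Ckm, the muscle creatine kinase, and Myoz2, a Z-disc protein. Chrne, Ryr1 and Ldhb, with Ckm and Myoz2 for contrast, are shown 5′ to 3′ because they are muscle-list genes whose start windows touch the 2 kinds of gained domain, and capitals mark each CANNTG. Among the 3 genes of these lists in the first set, CAGCTG stands in Chrne only. Among the 7 remaining genes in the second set it stands in Ckm, Mybpc1 and Myoz2, and not in Actn2, Myh1, Myof and Rbm24. The Chrne sequence is chr11:70619145-70619444 on the minus strand, Ryr1 is chr7:29125102-29125401 on the minus strand, Ldhb is chr6:142507908-142508207 on the minus strand, Ckm is chr7:19410844-19411143 on the plus strand and Myoz2 is chr3:123034938-123035237 on the minus strand, all in GRCm38.p6. The domains touched by these windows held 30 ChIP and 7 control reads at Chrne (fold 4.21), 60 and 25 at Ryr1 (2.36), 44 and 20 at Ldhb (2.16), 71 and 17 at Ckm (4.11) and 72 and 29 at Myoz2 (2.44).
Chrne: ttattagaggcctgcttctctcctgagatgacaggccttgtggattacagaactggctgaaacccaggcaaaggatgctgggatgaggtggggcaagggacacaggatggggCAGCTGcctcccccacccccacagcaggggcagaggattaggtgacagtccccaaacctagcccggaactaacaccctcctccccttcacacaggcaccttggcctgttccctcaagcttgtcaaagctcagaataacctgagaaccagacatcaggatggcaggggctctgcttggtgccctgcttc
Ryr1: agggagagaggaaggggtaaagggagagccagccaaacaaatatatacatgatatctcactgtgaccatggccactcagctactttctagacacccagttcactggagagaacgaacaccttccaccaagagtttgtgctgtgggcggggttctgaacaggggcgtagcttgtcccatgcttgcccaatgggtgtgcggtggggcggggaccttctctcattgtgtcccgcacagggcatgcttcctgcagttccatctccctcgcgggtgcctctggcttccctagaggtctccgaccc
Ldhb: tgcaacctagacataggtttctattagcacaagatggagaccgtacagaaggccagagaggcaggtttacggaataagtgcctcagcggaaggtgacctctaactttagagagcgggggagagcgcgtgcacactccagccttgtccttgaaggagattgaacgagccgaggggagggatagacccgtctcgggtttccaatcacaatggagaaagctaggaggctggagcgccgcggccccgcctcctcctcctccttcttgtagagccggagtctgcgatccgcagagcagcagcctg
Ckm: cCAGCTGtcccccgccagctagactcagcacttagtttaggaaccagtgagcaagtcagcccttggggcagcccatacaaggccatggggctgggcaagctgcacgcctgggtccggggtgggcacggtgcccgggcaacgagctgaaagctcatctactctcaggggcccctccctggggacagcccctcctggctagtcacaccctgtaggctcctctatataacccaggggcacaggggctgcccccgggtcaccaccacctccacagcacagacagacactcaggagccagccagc
Myoz2: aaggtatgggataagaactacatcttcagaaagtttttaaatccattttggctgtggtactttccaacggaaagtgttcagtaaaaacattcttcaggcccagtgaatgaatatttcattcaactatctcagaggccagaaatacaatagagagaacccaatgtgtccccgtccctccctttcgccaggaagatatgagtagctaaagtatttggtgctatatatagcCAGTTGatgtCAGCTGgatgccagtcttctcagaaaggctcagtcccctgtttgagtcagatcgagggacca

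CAGCTG, the E-box form that MyoD favours, was found on either strand in 13 of the 97 promoters in gained domains without a factor, or 13.4% (7.33 to 21.8%). It was found in 25 of the 80 promoters in gained domains with a factor, or 31.2% (21.4 to 42.6%). Promoters in kept domains, those that overlap a myoblast domain, had it at 14.7% (12 to 17.6%) without a factor and 25.8% (22.6 to 29.3%) with one. All 7529 promoters had it at 14.8% and those in no myotube domain at 13.3%. The looser form CANNTG, which includes CAGCTG, was in 71.1% of the promoters in factor-free gained domains and in 69.2% of all promoters. The AP-1 form TGACTCA was in 4 of 97, or 4.12% (1.14 to 10.2%), against 5.06% of all promoters, the TEAD form GGAATG in 8.25% against 13.2%, and the RUNX form TGTGGT in 10.3% against 14.9%. Each of these 3 intervals holds the share over all promoters. The median number of CG dinucleotides was 12 (9 to 15) in promoters of factor-free gained domains, 11 (7 to 15) in those of gained domains with a factor, 18 (17 to 18) in those of kept domains without a factor and 17 (15 to 18) in those of kept domains with one. Over all promoters it was 13 (12 to 13). Genes whose promoter lay in a factor-free gained domain had a median of 0.470 FPKM in DRRi and 0.550 FPKM in GFPi cells. For gained domains with a factor the medians were 0.553 FPKM in DRRi and 0.324 FPKM in GFPi cells, for kept domains without a factor 6.44 FPKM in DRRi and 6.11 FPKM in GFPi cells, and over all promoters 0.641 FPKM in DRRi and 0.574 FPKM in GFPi cells. Promoters in kept domains with a factor had 8.33 FPKM in DRRi and 8.04 FPKM in GFPi cells. Those in no myotube domain had 0.0466 FPKM in DRRi and 0.0485 FPKM in GFPi cells. By median, both gained classes thus lay under both kept classes and above the promoters in no domain. The DRRi intervals were wide, at 0.118 to 2.86 FPKM for factor-free gained domains and 0.0387 to 5.87 FPKM for gained domains with a factor. The highest of the 97 was Snrpe, a core spliceosome protein, at 225 FPKM in DRRi and 256 FPKM in GFPi cells. Actr2, a subunit of the Arp complex that starts actin filaments, was at 111 FPKM in DRRi and 140 FPKM in GFPi cells.

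The factor-free gained domains were short and lightly read. Their median length was 1800 bases, with a middle range (lower to upper quartile) of 1200 to 2600, and they ran up to 20800 bases. Gained domains with a factor had a median length of 2400 bases, kept domains without a factor 2000 and kept domains with a factor 3800. The median number of ChIP reads was 50 (49 to 50) per factor-free gained domain, 74 (72 to 75) per gained domain with a factor, 65 (64 to 65) per kept domain without a factor and 143 (141 to 145) per kept domain with a factor. In the same order the median control reads were 23, 29, 26 and 47. The deposited fold is ChIP over control reads times a constant of 0.983. Its median was 2.28 (2.26 to 2.29) in the factor-free gained domains, 2.66 (2.64 to 2.68) in gained domains with a factor, 2.61 (2.60 to 2.62) in kept domains without a factor and 3.12 (3.10 to 3.13) in kept domains with one. A fold under 2 was given to 4880 factor-free gained domains, or 33.7%, against 17.8% of all myotube domains. A fold of 4 or more was given to 1031 of them, or 7.12%. These 95% intervals and those below cover counting error within 1 list only.

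**Figure D1:**
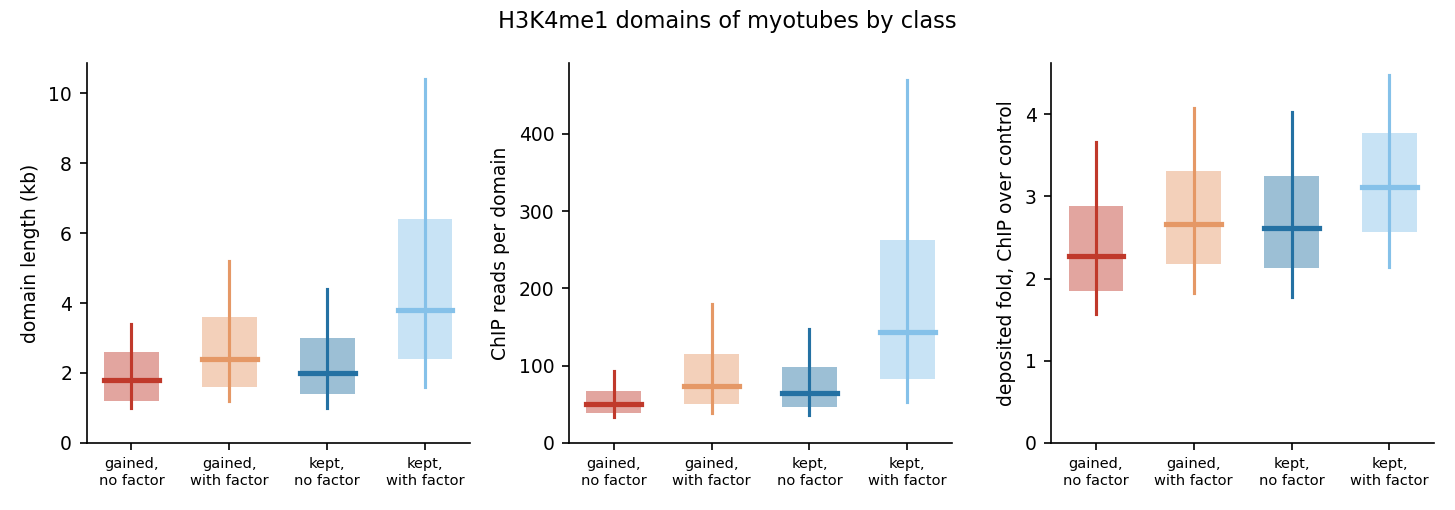
Length in kb, ChIP reads and deposited fold of the 4 classes of myotube H3K4me1 domains, with lines for medians, boxes for the quartiles and whiskers for the 10th to 90th percentile. The 14484 gained domains without a factor, at the left, have the lowest median in each panel (1800 bases, 50 ChIP reads, fold 2.28).

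Length and class are tied by the rule, since a longer domain has more bases that a peak or a myoblast domain can meet. Of gained domains up to 1000 bases long 76.2% had no factor peak, and of those over 4000 bases 34.0% had none. Among domains of exactly 1800 bases the median fold was 2.24 (2.20 to 2.31) for the 1255 factor-free gained domains, 2.61 (2.48 to 2.70) for the 563 gained domains with a factor, 2.60 (2.55 to 2.64) for 1886 kept domains without and 3.06 (2.98 to 3.15) for 771 kept domains with a factor. Among domains of 3000 bases the 452 factor-free gained ones had a median fold of 2.02 (1.97 to 2.10), against 2.56 (2.46 to 2.66) for the 330 gained with a factor. The lower fold was thus also seen at equal length. Kept domains had a myoblast domain at the same place by definition. The mirror set, 17077 myoblast domains with no myotube overlap and no factor peak, had a median length of 1600 bases, 49 ChIP reads and a fold of 2.22 (2.21 to 2.24). The gained set is thus smaller than its mirror in number, with a similar read count. Folds of the 2 stages carry different constants (0.983 in myotubes, 0.858 in myoblasts).

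The lists say only whether a domain was called, so the myoblast signal under a gained domain is not known here. Just inside the rule, 157 factor-free gained domains lay within 200 bases of a myoblast domain, 83 of them touching it, with a median length of 2000 bases and a median fold of 2.21. Just outside, 181 kept domains without a factor overlapped a myoblast domain by 200 bases, with a median length of 1600 bases and a median fold of 2.41. As examples, the domain chr1:38310001-38313000 (mm9, as are all positions of domains and loci) touched a myoblast domain and held 90 ChIP and 34 control reads, and chr1:36132801-36135800 overlapped one by 200 bases with 77 ChIP and 39 control reads. Both are 3000 bases long. A MyoD or MyoG peak stood within 200 bases of 66 factor-free gained domains, the nearest at 2 bases. In the deposited column read as a q-value, 0.01 or more was given to 502 of the 14484, or 3.47% (3.17 to 3.78%), and to 1.26% of all myotube domains.

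Most of the largest factor-free gained domains came from a stretch where the control was also dense. Between 80 and 100 Mb of chromosome 8 the 218 factor-free gained domains held 25.1 control reads per kb, against 12.5 on all chromosomes other than 7, 8 and 15. Their median fold was 1.40 (1.37 to 1.45), against 2.29 (2.28 to 2.31) on those other chromosomes. The control column of the myoblast list, taken over all its domains, was dense there as well, at 28.3 reads per kb against 15.5. Of the 745 myotube domains in that stretch 29.3% (26.0 to 32.7%) belonged to the factor-free gained set, and 20.5% (20.2 to 20.8%) on those other chromosomes. On chromosome 15 the 861 factor-free gained domains had 15.4 control reads per kb and a median fold of 1.84, and on chromosome 7 the 604 had 9.77 and 2.95. Chromosome 8 beyond 100 Mb had 9.44 control reads per kb and a median fold of 3.01. The ChIP reads per kb in the same domains were 35.4 in the dense stretch, 29.1 on chromosome 15, 28.6 on chromosome 7 and 28.5 on the other chromosomes. The part that the control density plays in the calls was not tested. The bounds of the stretch were chosen after the control reads were seen.

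**Figure D2:**
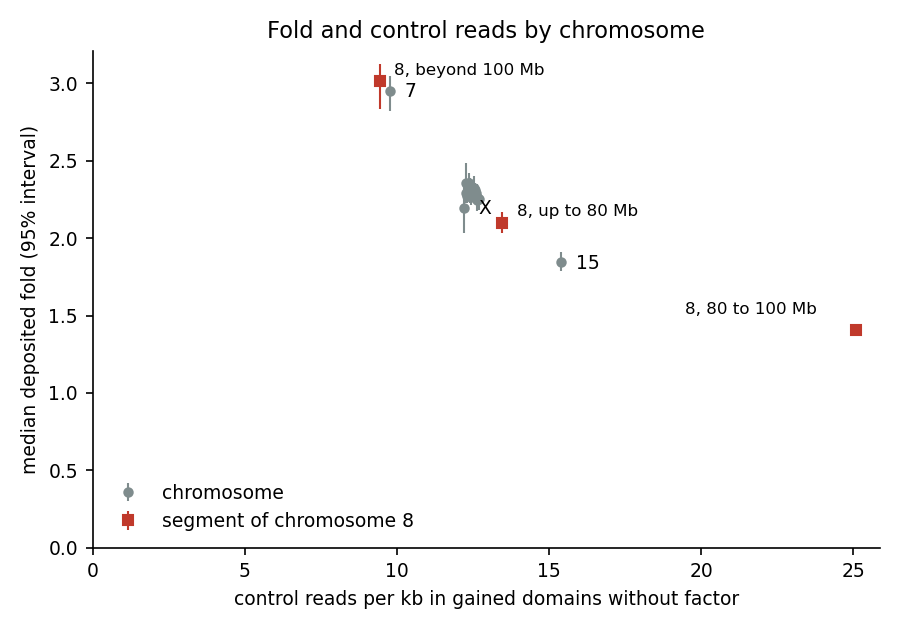
Median deposited fold of the factor-free gained domains (vertical, with 95% intervals) against their control reads per kb (horizontal), for each chromosome other than 8 (grey circles) and for 3 segments of chromosome 8 (red squares). The segment from 80 to 100 Mb lies far right and low (25.1 reads per kb, fold 1.40), and chromosome 7 and the end of chromosome 8 lie left and high (folds 2.95 and 3.01).

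Of the 10 factor-free gained domains with the most ChIP reads 8 lay in that stretch, and of the 10 longest 6 did. The longest, chr8:94289201-94310000, was 20800 bases with 737 ChIP and 613 control reads (fold 1.18), 12.4 kb from Irx3, a homeobox gene. It was followed by chr15:55587601-55605000 inside Sntb1, with 17400 bases, 608 ChIP and 277 control reads and a fold of 2.16. The domains inside Zfp423 (514 ChIP, 439 control reads) and Zfp827 (501 and 434) had folds of 1.15 and 1.14. Outside both chromosomes, the richest was chr11:85525601-85536400 inside Bcas3, with 10800 bases, 418 ChIP and 138 control reads and a fold of 2.98. Among the longest, chr1:62848801-62860400 inside Nrp2, a receptor for semaphorins and VEGF, held 370 ChIP and 143 control reads over 11600 bases (fold 2.54), and chr13:112902201-112914000 held 351 and 136 over 11800 bases, 165 kb from Ankrd55.

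Among factor-free gained domains with at least 10 control reads, the highest folds lay between 6.19 and 8.26, and none of these 10 was in the chromosome 8 stretch. The first was inside Kdm3b, a histone demethylase gene, with 84 ChIP and 10 control reads over 2200 bases. Next came chr11:116337001-116338800 inside Prpsap1, with 108 and 15 reads and a fold of 7.08. The domain chr6:94490401-94492400 lay where Lrig1, a negative regulator of growth factor receptors, and Slc25a26 are both listed, with 104 and 15 reads (fold 6.82). The domain chr10:5185001-5187600 inside Syne1, which codes for the nuclear envelope protein nesprin-1, held 109 and 17 reads (fold 6.30). The others lay inside Cog5, Gpr22 and Hbp1, inside Mfsd7c, inside Uvrag, inside Znrf3, and nearest to Anapc1 and Lbr. With fewer control reads folds went higher, up to 24.6 for a domain of 400 bases with 25 ChIP reads and 1 control read, so a high fold alone says little at this depth.

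Most factor-free gained domains lay in or near genes, as did most myotube domains. Of the 14484, 7998 (55.2%, 54.4 to 56%) touched a gene locus of the expression tables. Another 1027 (7.09%) lay within 5 kb of one, and 5459 (37.7%, 36.9 to 38.5%) lay farther off. Over all myotube domains these shares were 56.1%, 9.24% and 34.7%. Of gained domains with a factor 39.7% (38.6 to 40.8%) lay more than 5 kb from every locus, and of kept domains without a factor 30.5% (29.9 to 31.0%). The 2 gained classes were thus both more often far from genes than the kept domains without a factor, and kept domains with a factor stood between at 35.8% (35.2 to 36.4%). Within 5 kb outside a locus the kept domains without a factor had 10.2% of their number, against 7.09% of the factor-free gained domains. The median fold of the factor-free gained domains was 2.29 (2.27 to 2.31) inside loci, 2.35 (2.27 to 2.41) within 5 kb and 2.25 (2.22 to 2.27) farther off.

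Bound domains, here myotube domains with a MyoD or MyoG peak of myotubes, were usually nearby. The median distance from a factor-free gained domain to the nearest bound domain was 9.0 kb (8.8 to 9.4), with a middle range of 3.0 to 24.0 kb. For kept domains without a factor it was 10.4 kb (10.2 to 10.6). Within 10 kb of a bound domain lay 52.8% (52.0 to 53.6%) of the factor-free gained domains and 49.3% (48.7 to 49.9%) of the kept ones. Neighbouring domains in the list are never closer than 800 bases. To the nearest MyoD or MyoG peak of any list, in a domain or not, the median distance was 8.47 kb for the factor-free gained domains and 8.05 kb for the kept domains without a factor. A peak within 1 kb was seen beside 2.98% (2.71 to 3.27%) of the first and 7.72% (7.39 to 8.05%) of the second. The median fold of the factor-free gained domains was 2.27 (2.25 to 2.29) up to 5 kb from a bound domain, 2.26 (2.23 to 2.31) at 5 to 10 kb, 2.26 (2.24 to 2.29) at 10 to 50 kb, 2.34 (2.30 to 2.42) for the 974 at 50 to 100 kb and 2.33 (2.25 to 2.40) for the 624 beyond 100 kb. It was highest at 50 to 100 kb, while the interval beyond 100 kb holds the medians of all nearer bands. The median length was 1600 bases in both bands beyond 50 kb, against 2000 bases up to 5 kb.

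The nearest myoblast H3K4me1 domain stood at a median of 5.6 kb (5.4 to 5.8) from the factor-free gained domains and at 8.0 kb (7.8 to 8.2) from the gained domains with a factor. A myoblast domain within 1 kb was found for 10.2% (9.69 to 10.7%) of the first and 6.67% (6.13 to 7.24%) of the second, and within 5 kb for 47.3% and 36.5%. The factor-free gained domains thus lay closer to chromatin that was already marked in myoblasts. Only 190 of them were more than 100 kb from any myoblast domain.

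**Figure D3:**
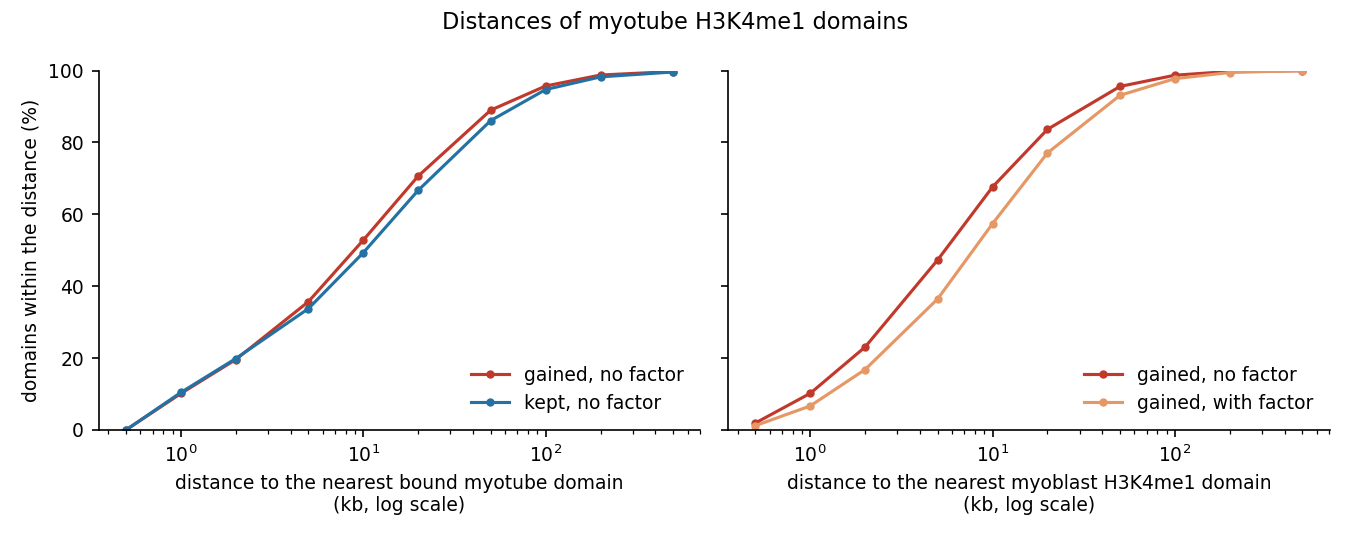
Share of domains (vertical, %) within a given distance (horizontal, kb, log scale) of the nearest bound myotube domain (left) and of the nearest myoblast H3K4me1 domain (right). The 2 curves at the left run close together, with 52.8% of factor-free gained and 49.3% of factor-free kept domains within 10 kb, and at the right the factor-free gained domains lie above the gained domains with a factor (47.3% and 36.5% within 5 kb).

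The 5 farthest from any bound domain, among those with at least 50 ChIP reads, were 1539 to 3790 kb away. The farthest was chr7:46797601-46799400, with 53 ChIP and 15 control reads (fold 3.47), and lay 9.63 kb from the nearest listed factor peak and 0.8 kb from a myoblast domain. The domain chr5:69933001-69934600 inside Yipf7 was 2659 kb from a bound domain, 2159 kb from any factor peak and 2232 kb from any myoblast domain, with 52 ChIP and 11 control reads (fold 4.65). The others were chr9:4377401-4382400 near 8430410K20Rik (fold 1.68), chr5:42076401-42079000 inside Rab28 (fold 3.05) and chr3:157617201-157621600 inside Ankrd13c (fold 2.13). These were far from bound domains but not from listed factor peaks, which stood 0.775, 19.2 and 7.18 kb away in that order.

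Gained domains tended to sit beside gained domains. The nearest other myotube domain was itself a factor-free gained domain for 27.5% (26.8 to 28.3%) of them, and a gained domain with a factor for 15.3% (14.7 to 15.9%). These classes make up 20.5% and 11.2% of the list. Gained domains with a factor had a factor-free gained domain as their nearest neighbour in 29.6% (28.6 to 30.7%) of cases. Runs of factor-free gained domains, with steps of at most 10 kb and no other myotube domain between, took in 4463 of them, or 30.8%, in 1954 runs, and 10021 stood alone. The longest runs had 6 members, and there were 6 such runs. They lay at chr4:15226801-15252000 with no locus within 10 kb, by B3gntl1, Tbcd and Zfp750, by Casz1, by Adora1, Chi3l1 and Mybph, by Lass6, and at chrX:96557401-96588000 with no locus within 10 kb. The run by Mybph, which codes for a myosin-binding protein of skeletal muscle, spanned 18.6 kb with 340 ChIP and 143 control reads.

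Of 20302 gene symbols with a locus, 6295 had a factor-free gained domain within 10 kb, or 31.0%, and 4506 had a gained domain with a factor within 10 kb, or 22.2%. Both kinds stood near 2566 symbols, and 3729 had the factor-free kind alone. Long genes had more: a factor-free gained domain was near 15% of symbols with loci up to 10 kb and near 57.0% of those over 200 kb. The 431 symbols with at least 5 had a median locus of 221 kb. A listed locus need not be the named gene alone. Of 11869 single-locus symbols with 1 RefSeq promoter on the same chromosome, 7529 had a locus within 200 bases of the RefSeq gene length. Mybph is listed with 42.0 kb, Capn3 with 150 kb and Timp3 with 450 kb. Domains counted at a symbol may therefore lie at other genes of its locus.

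Celf2, a splicing regulator that binds RNA, had the most, with 30 of the 63 myotube domains at its 857 kb locus. These 30 held 34 to 249 ChIP reads each, with folds of 1.45 to 4.18. Another 12 domains there were gained with a factor, 9 were kept without and 12 kept with one. Ptprg, a receptor tyrosine phosphatase, had 25 of 48. Others with many were Rbms3, an RNA-binding protein, with 22 of 55, Arid1b, a subunit of the BAF chromatin remodeller, with 20 of 52, and Fggy with 20 of 43. Dip2c had 19 of 32, Rad51l1, a recombination protein, 19 of 61, and Mast4, a kinase, 18 of 71. Ror1, a Wnt receptor, had 18 of 41, and Pde4d, a cAMP phosphodiesterase, 18 of 83. Tshr and 4930534B04Rik are listed with the same locus, where 17 of 27 domains belonged to the set. Sntb1 had 16 of 29, and LOC100504473 had 16 of 37.

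Per length, the densest were Chi3l1 with 5 members (18.1 per 100 kb of locus and flanks), Pabpc6 with 4 (17.2) and Sdpr with 5 (14.8). Sdpr, which codes for a caveolar protein, was listed at 19.8 FPKM in DRRi and 19.2 FPKM in GFPi cells, and its 5 domains had folds of 2.12 to 4.16. Chi3l1 was at or below 0.0551 FPKM in every library. The others were Sept4, Ccdc110, 1700025E21Rik, Sra1, Tigd4, Ggn and Il17b, with 3 or 4 each. At Pabpc6 and Ccdc110 the 4 factor-free gained domains were the only myotube domains within 10 kb.

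Some loci with many factor-free gained domains had none with a factor. These were picked after their values were seen. Sntb1, which codes for a syntrophin of the dystrophin complex, held 16 such domains of 1200 to 17400 bases, with 41 to 608 ChIP reads and folds of 1.39 to 3.07, no gained domain with a factor, and 8 kept domains with one. It lies on chromosome 15, where control reads were dense. Enah, a regulator of actin filament growth, held 14 of 19 domains. They had 33 to 118 ChIP reads and folds of 1.35 to 9.09, and 4 kept domains with a factor held 158 to 411 ChIP reads each. Ncam1, the neural cell adhesion molecule that myoblasts also carry, held 9 of 30, with 34 to 59 ChIP reads and a median fold of 1.88, beside 9 kept domains with a factor that held 256 to 888 reads. The folds of these classes overlapped at both loci, at 1.41 to 4.30 against 2.63 to 6.20 at Ncam1 and 1.35 to 9.09 against 2.77 to 3.94 at Enah. No share over all loci was taken, so the ranges of reads at these loci are no general result. The kept domains without a factor overlapped the factor-free gained ones in reads. They held 43 to 455 reads at Ncam1, and the only 1 at Enah held 57. The factor-free gained domains were also shorter there, at 1000 to 2800 bases against 5600 to 19600 bases for the kept domains with a factor at Ncam1, and 800 to 3400 bases against 3800 to 10400 bases at Enah. At Sntb1 (41 to 608 against 90 to 1069 reads) and Celf2 (34 to 249 against 77 to 388 reads) the factor-free gained domains and the kept domains with a factor overlapped in reads. Other loci of this kind were Bmp6 with 11, Qk and Gnaq with 10 each, and Col14a1 with 9.

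**Figure D4:**
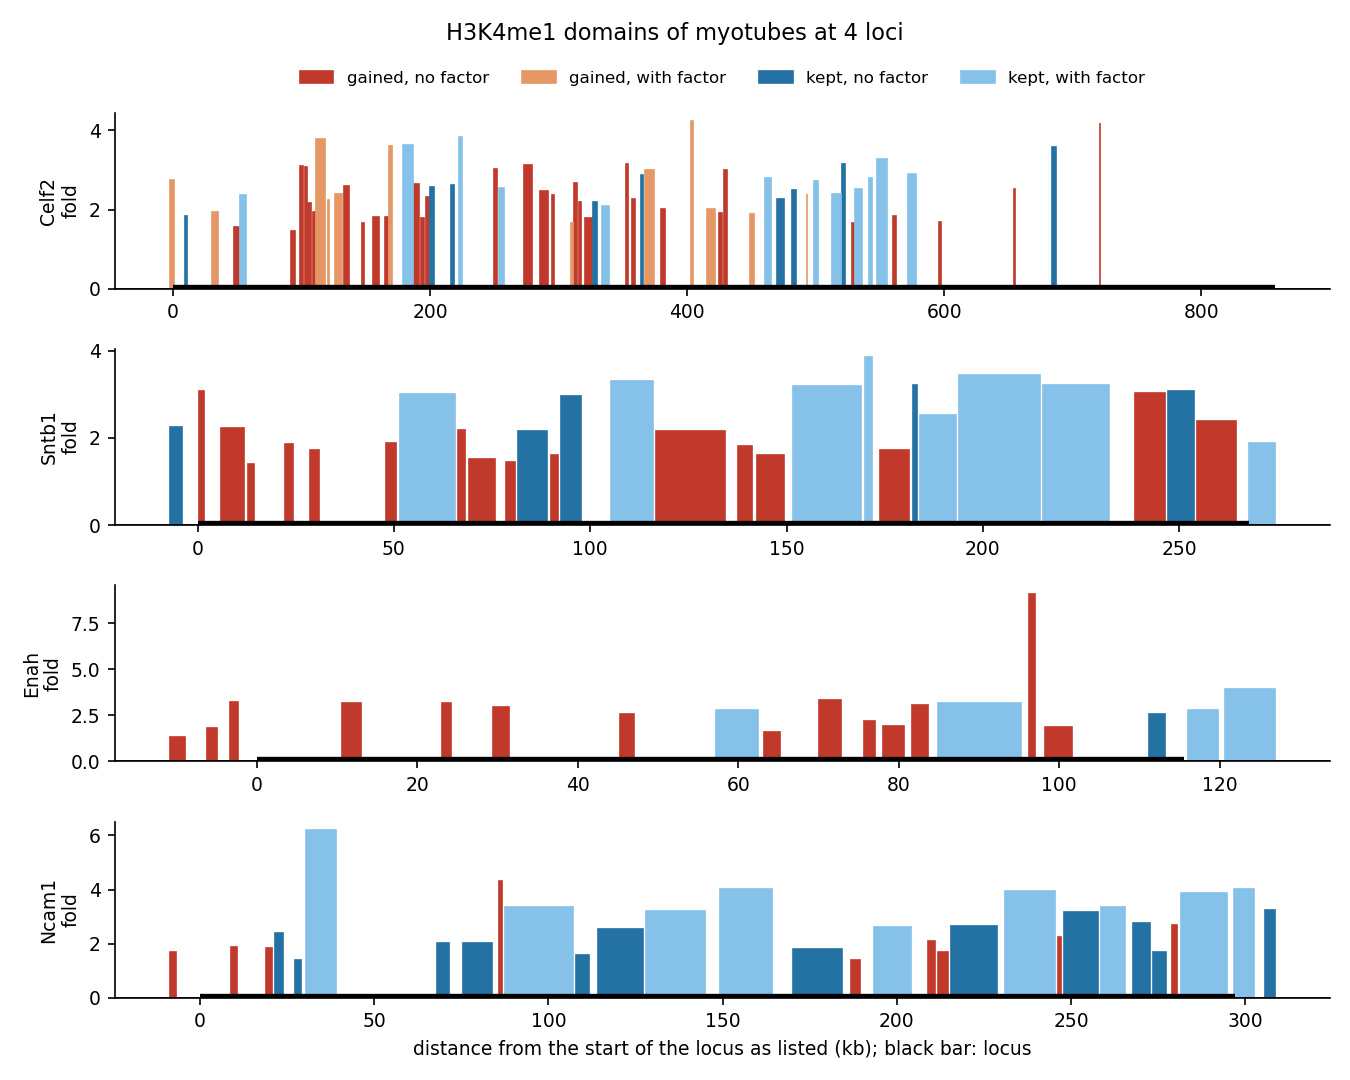
Deposited fold (vertical) of every myotube H3K4me1 domain within 10 kb of Celf2, Sntb1, Enah and Ncam1, drawn at its distance in kb from the start of the listed locus (black bar) and coloured by class. The factor-free gained domains (red, 30, 16, 14 and 9 of them) are mostly narrow bars between wider kept domains, and Sntb1, Enah and Ncam1 show no gained domain with a factor.

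Among 14 gene lists, the factor-free gained domains were near the largest shares of the fusion and adhesion, excitation and myogenic regulator lists, each with 60 to 61.9% of its genes. Each share is read against 31.0% over all symbols. The median locus was 58.5 kb for fusion and adhesion, 23.9 kb for excitation and 30.6 kb for myogenic regulators. It was 64.3 kb for the matrix list, with a share of 34.5%. Among all symbols, those near a factor-free gained domain had a median locus of 40.7 kb. Symbols near neither kind of gained domain had one of 12.4 kb. The part that locus length plays in the shares of the lists was not tested. The lists and members were chosen with earlier results known, and nothing particular to a list is drawn from its share.

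Of 20 myogenic regulators 12 had a factor-free gained domain within 10 kb and 11 a gained domain with a factor. Tcf12, an E-protein that pairs with MyoD, had 11 and 2 of them, and Tcf4, another E-protein, had 8 and 3. Mef2a, a MADS-box factor of muscle, had 5 and 1, with a fold of up to 8.19 among the 5. Smyd1, a muscle methyltransferase, had 3 and 4, and Hdac4, a class IIa deacetylase that represses MEF2, had 2 and 1. Mef2d had 2 and none. Tcf12 was at 50.5 FPKM in DRRi and 47.4 FPKM in GFPi cells, and Smyd1 was under 1 FPKM in both.

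Sarcomere genes had the opposite balance: 18 of 39 had a factor-free gained domain near (33 domains in all), and 24 of 39 a gained domain with a factor (54 domains). The listed locus of Mybph, 42.0 kb long, had 6 factor-free and 2 with a factor. Ttn, the giant elastic protein of the sarcomere, had 5 and 1. The richest at Ttn, chr2:76811801-76816600, held 185 ChIP and 54 control reads (fold 3.37). Myl1, Actn2 and Mybpc1 had 2, 2 and 3 factor-free domains beside 6 each with a factor, and Myom1 had 2 and 2. Of the sarcomere genes near a factor-free gained domain, 9 reached 1 FPKM in DRRi and GFPi, of which 5 were 1.5-fold or more lower in DRRi and 1 higher (median log2 change −0.78). Over all genes tested 3.5% were lower and 4.66% higher, with a median of 0.02. In the overexpression experiment 12 reached a mean of 1 FPKM, of which 7 were higher in pHAN_DRR1.2 than in pHAN_GFP cells and none lower (median 0.67). Over all genes 1.38% were higher and 0.654% lower, with a median of 0.02. Mybpc1 fell under that limit and was not counted, at 0.243 FPKM in pHAN_DRR1.2 against 1.37 FPKM in pHAN_GFP cells (log2 change −0.931). Sarcomere genes with no factor-free gained domain near were not counted. Of the 18 sarcomere genes near a factor-free gained domain 13 were also near a gained domain with a factor, so these changes cannot be tied to either kind. Myog itself was at 2.61 FPKM in DRRi against 10.2 FPKM in GFPi cells, and at 65.8 FPKM in pHAN_DRR1.2 against 26.3 FPKM in pHAN_GFP cells. Of the excitation genes near such a domain 4 of 9 were lower in DRRi and none higher, and in each of the other lists at most 2 were past 1.5-fold in a direction.

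In the excitation list 16 of 26 genes had a factor-free gained domain near and 11 of 26 a gained domain with a factor. Cacna2d1, a calcium channel subunit, had 7 and 3, Jph1, which joins the surface and calcium-store membranes, had 3 and 6, and Chrna1, the alpha subunit of the acetylcholine receptor, and Jsrp1 had 2 and none. Cacna1s and Scn4a, the muscle calcium and sodium channels, had 2 each, beside 2 and 3 with a factor. In the fusion and adhesion list the counts were 13 and 8 of 21. After Ncam1 came Capn3, a muscle protease, with 4 and 3, Cdh2, N-cadherin, with 4 and none, Itga7, the laminin-binding integrin of muscle, with 3 and none, Jam3 with 3 and 2 and Dysf, a membrane repair protein, with 2 and 1. The 3 domains at Itga7 had folds of 1.37 to 1.51.

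In the growth signalling list 15 of 27 genes had a factor-free gained domain near and 13 a gained one with a factor. Tgfbr2, Igf2r and Acvr2a had 4 each, and Igf1, the muscle growth factor, Foxo1 and Tgfb2 had 3. At Igf1 the richest, chr10:87309601-87313800, held 136 ChIP and 38 control reads (fold 3.52). For Notch and Wnt genes the counts were 15 and 11 of 28, led by Tcf7l1, a nuclear partner of beta-catenin, with 6 and none. Lrp5 and Tcf7l2 had 4, Lrp6 and Notch2 had 3, and Wnt9a had 2. For the list of AP-1, Runx and TEAD factors they were 14 and 10 of 28. This list also holds genes outside those families, such as Nfib, Mkl1, Mkl2 and Yap1. It was led by Nfib with 6 and Runx2 with 3, while Mkl2, Mkl1 and Atf3 had 2 and Yap1 had 1. Muscle metabolism had 11 and 9 of 26, with Insr, the insulin receptor, and Irs1, its substrate, at 4 each, Ppara and Ppard at 2, and Ucp3 and Fabp3 at 1. The matrix list had 10 and 9 of 29, with Lama2, the laminin chain of the muscle basement membrane, at 11 and Col15a1 at 4, Lamb1, Lamc1 and Timp3 at 3 and Tnc at 2.

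For the factor-free kind, the lists of other kinds stood near or under the share over all symbols. For gained domains with a factor, the neural, blood and endothelial list stood at 35.3% (14.2 to 61.7%), against 22.2% of all symbols. Cell cycle genes had 8 and 5 of 28 (Ccnb1 and Cdk6 with 2, Ccne1, Cdk2, E2f1 and Aurka with 1), adipocyte and bone genes 4 and 3 of 16 (Pparg with 2, Lep, Plin1 and Bglap with 1) and neural, blood and endothelial genes 4 and 6 of 17 (Tek with 4, Rbfox3 with 2, Sox10 and Gfap with 1). Housekeeping genes had 3 and 1 of 15 (Sdha, Ywhaz and Tfrc with 1 each). In the cell cycle exit list, with 5 and 3 of 15, Ccnd3, the D-type cyclin kept in differentiating muscle, had 7 and none. The 7 at Ccnd3 had folds of 2.17 to 4.48, and the gene was at 84.2 FPKM in DRRi and 61.7 FPKM in GFPi cells. Gadd45a and Rb1, the retinoblastoma protein, had 2, and Rbl2 and Cdkn1c had 1.

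**Figure D5:**
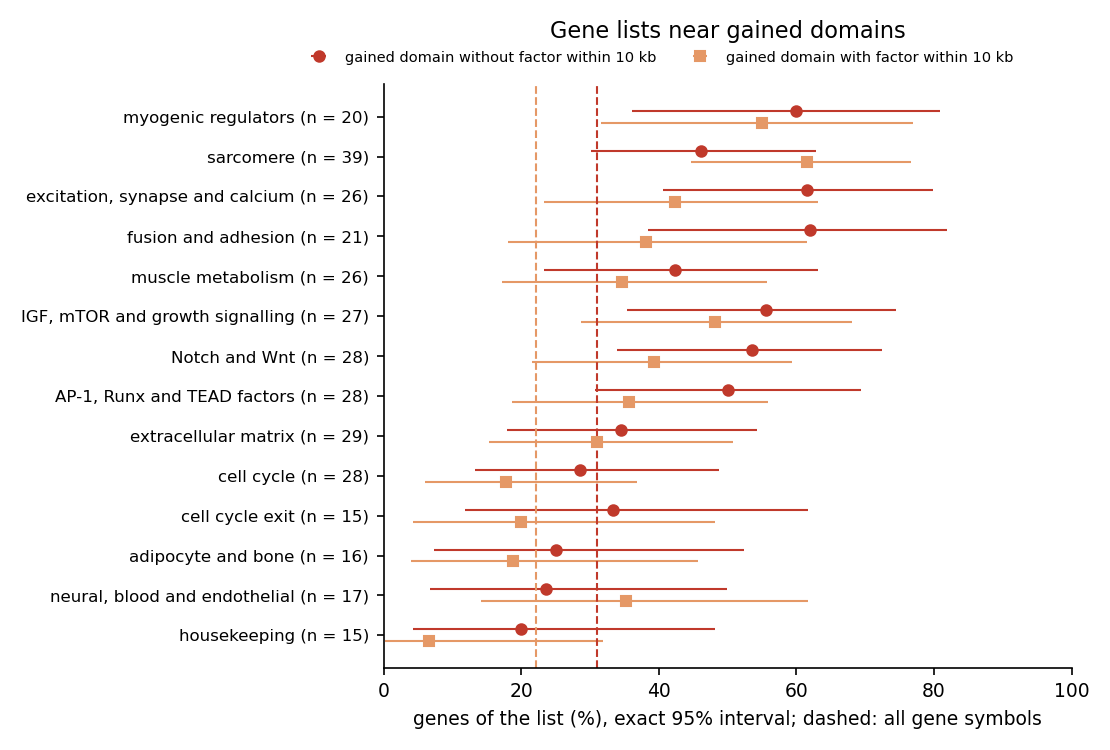
Share of the genes of each list (horizontal, %, with exact 95% intervals) that have a factor-free gained domain (red circles) or a gained domain with a factor (orange squares) within 10 kb. Dashed lines give the share over all 20302 symbols (31.0% and 22.2%), and the sarcomere and the neural, blood and endothelial lists are the ones whose square lies to the right of the circle.

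RNA at 4 h of differentiation, well before the 48 h of the myotube domains, was read for genes near the factor-free gained domains. Of the 6295 symbols near one, 68.2% (67.0 to 69.3%) reached a mean of 1 FPKM in DRRi and GFPi, against 52.1% over all symbols. This was not particular to the factor-free kind. The level was reached by 1192 of 1940 symbols near only gained domains with a factor and 1681 of 2566 near both kinds. Near neither kind 5094 of 12067 reached it. Changes were taken as log2 with a pseudocount of 1, which understates those of weakly expressed genes, and counted from 1.5-fold. Near a factor-free gained domain, 169 of 4291 genes were higher in DRRi than in GFPi cells, or 3.94% (3.38 to 4.56%). Of all genes tested 4.66% were. Another 156 were lower, or 3.64% (3.10 to 4.24%), against 3.5%. In pHAN_DRR1.2 against pHAN_GFP cells 42 of 4368 were higher, or 0.962% (0.694 to 1.3%), against 1.38%, and 36 were lower, or 0.824% (0.578 to 1.14%), against 0.654%. These shares lie near those of all genes, so they are no result about the domains. The median log2 change was 0.02 near the domains and 0.02 over all genes in the first comparison, and 0.01 and 0.02 in the second. In these bulk samples fewer cells of a kind and less RNA per cell cannot be told apart.

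Mest, an imprinted gene of the mesoderm, lay at the low end of both experiments, with 4 factor-free gained domains near. It had 43.4 FPKM in DRRi against 119 FPKM in GFPi cells (log2 change −1.43), and 48.7 FPKM in pHAN_DRR1.2 against 114 FPKM in pHAN_GFP cells (−1.22). The authors' deposited table gives it q-values of 0.00261 and 1.21e-06. Such a q-value is that of the gene's most abundant coding sequence. The other genes lowest in DRRi, among genes with at least 2 such domains and a mean of 5 FPKM, were Olfm1 (24.4 against 65.8 FPKM), Cacna2d1 (7.24 against 17.7 FPKM), Ppp1cb, a phosphatase subunit (30.1 against 66.1 FPKM), and Tnnt1, slow troponin T (5.45 against 12.9 FPKM) in DRRi against GFPi cells. The highest were 9030617O03Rik (31.0 FPKM in DRRi against 8.99 FPKM in GFPi cells), Rnd1, Rnf141, Tkt and Etv5, with log2 changes of 1.68, 1.34, 1.30, 1.22 and 1.02. The authors' deposited table gives q-values of 0.301 for Tnnt1, 0.0603 for Rnf141 and 0.0666 for Etv5, and of at most 0.0308 for the other 7 genes at the ends of this comparison.

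In pHAN_DRR1.2 cells the lowest were Lars2, the mitochondrial leucyl-tRNA synthetase (52.4 FPKM against 195 FPKM in pHAN_GFP cells), St8sia2, a polysialyltransferase (6.83 against 17.2 FPKM), Mest, Fndc1 and Igf1 (3.42 against 6.82 FPKM). The highest was Myl1, a fast myosin light chain, at 32.9 FPKM in pHAN_DRR1.2 against 8.97 FPKM in pHAN_GFP cells (log2 change 1.77), with 2 factor-free gained domains near and 6 with a factor. Next came Alox5, a lipoxygenase (67.7 against 27.1 FPKM), Dync1i1, a dynein chain, Dcn, the proteoglycan decorin, and Neurl1a, which had 8 factor-free gained domains near and none with a factor. The authors' deposited table gives these 10 genes q-values of at most 0.00849, with 1 library behind each condition.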

How the data were processed

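The H3K4me1 lists have no header, so their columns were read from the values and the layout. They were taken as deposited counts of ChIP and control reads, a fold and a q-value. The fold is the ratio of the counts times a constant of 0.983 (myotubes) or 0.858 (myoblasts) fitted from the values. SICER, TopHat and mm9 are named in the submitters' processing notes, with no versions, windows or thresholds. Per the file headers MACS made the factor peak lists, whose deposited score is at least 60. The labels name 2 runs for each factor sample, and whether runs were pooled is not given in the sources used here. Expression is the authors' FPKM per coding sequence, summed per symbol. Each table was normalized on its own. Its DRR column was matched by exclusion, since only the GFP control is named as in the labels.

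Domains were read as whole windows of 200 bases and compared by 1 base of overlap (Python 3.11.15, numpy 2.4.6, pandas 2.3.3, scipy 1.17.1), with helpers tested on simulated data. The myotube domains hold 8842751 ChIP and 3030463 control reads. These are not library depths, which are not given. Loci come from the tables and carry no strand. Medians have order-statistic and shares exact Clopper-Pearson 95% intervals. Genes needed a mean of 1 FPKM, and 10 kb was near. Domains and genes were named by rank: most reads, longest, highest fold with 10 control reads, farthest, most members and largest changes; 1 locus that these ranks take is not reported here. Members, lists and comparisons were chosen with earlier results of these data known, and the promoter comparison was added after the files were seen. The ribosome-depleted RNA of myotubes and satellite cells was not analysed here.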

Additional observations from a re-analysis of the deposited data

How the results depend on the processing

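The median length stayed at 1800 bases under all 5 alternatives tried, and the median fold without chromosome 8 from 80 to 100 Mb, an alternative chosen after seeing the data, was 2.29. Myotube domains with a fold of 2 or more and 10 or more control reads left 8553 members, a median fold of 2.54, 36.7% intergenic and a median of 9.8 kb to a bound domain; the fold follows from that filter. Counting only factor peaks with a score of 100 or more gave a median fold of 2.30 and 12 kb. Asking for no myoblast domain within 1 kb gave 9.6 kb and, by construction, a share of 0% with one within 1 kb. The nearest domain with a MyoD peak gave 10.2 kb. More than 20 kb from every locus held 27.0%. With 50 kb as near, 10933 symbols had a member, with 324 genes higher (4.45%, against 4.66% of all genes) and 265 lower (3.64% against 3.5%) in DRRi and 89 higher in pHAN_DRR1.2 (1.21% against 1.38%). A mean of 5 FPKM left 105 higher in DRRi (3.1% against 3.86%) and 25 higher in pHAN_DRR1.2 (0.731% against 1.09%). A pseudocount of 0.1 gave 66 higher (1.51% against 2.15%) and 62 lower (1.42% against 1.12%) in pHAN_DRR1.2, and the most abundant coding sequence alone 57 lower there (1.31% against 1.06%). The other 40 values stayed within 1.5 times the count or inside the 95% interval. No paired analysis was possible because each group holds 1 library. With 1 library per group, a median of 50 ChIP reads per member and only listed domains to compare, a gained call cannot be told apart from a myoblast domain just under the authors' threshold.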
